A study of Mus musculus with 4 samples.

Results

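The genes described here encode the receptors and the receptor antagonist of the IL-1 cytokine family: Il1r1, Il1r2, Il1rl1, Il1rl2, Il1rn, Il18r1 and Il18rap. They are a named list of 7 genes among the 27593 on the array, read through all 13 of their probes among 41174. The list was chosen by family name and by the genes' levels on these same arrays, so the levels and differences of these 7 genes are given as a description, with no test.

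Receptors of this family signal as pairs: a chain that binds the cytokine recruits an accessory chain, and the paired intracellular TIR domains engage the adaptor MyD88, which leads to the transcription factor NF-κB. Brakes on the pathway include a decoy receptor that binds IL-1 without signalling, a secreted antagonist that occupies the receptor, and soluble receptor forms. In T cells, the IL-1 receptor is best known from cells that make IL-17, the IL-33 receptor ST2 from type 2 helper cells and tissue regulatory T cells, and the IL-18 receptor from cells that make interferon-γ.

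The array labelled si-Eos held RNA of natural regulatory T cells (Treg, CD4+CD25+) transduced with a lentiviral hairpin RNA against Eos and a GFP reporter. The array labelled si-RL held RNA of Treg transduced in parallel with a hairpin against Renilla luciferase, the control. Both stayed in human IL-2 for 60 h before a sort for GFP. Untransduced Treg and untransduced naive T cells (CD4+CD25-CD62Lhi) completed the set, and all cells came from spleen and lymph nodes of Balb/C mice. The labels give neither the age nor the number of mice behind a sample, and they name no CD62L gate for Treg, so Treg identity and an activated state cannot be told apart in the comparison with naive T cells. Both hairpin arrays share the transduction, the 60 h in IL-2 and the sort for GFP. These cannot be told apart in the comparisons of either hairpin array with untransduced Treg. Each group was 1 array of Cy3-labelled, linearly amplified RNA, so no difference below has a replicate check and no p-value can be given.

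Between 64.0% and 68.3% of probes were well above background on the 4 arrays, and the 75th percentile of the signal lay between 262 and 392. T cell markers were well above background on every array, 7 of 7. Eos mRNA (Ikzf4), which the hairpin was meant to lower, went against the labels. Its 3 probes read 425, 249 and 141 in the array labelled si-Eos, against 89.6, 107 and 50.6 in the array labelled si-RL. The same probes read 323, 363 and 121 in Treg and 39.1, 192 and 61.1 in naive T cells. Foxp3, the transcription factor that defines Treg, had signals of 2644 in the array labelled si-Eos, 110 in the array labelled si-RL, 1778 in Treg and 64.4 in naive T cells. Every direction between the hairpin arrays therefore holds for the libraries as labelled, and all such signs would turn if the labels were exchanged.

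Of the 7 genes, 6 were well above background on at least 1 array. In the array labelled si-Eos and in Treg 6 were, and in the array labelled si-RL and in naive T cells 4 were. A level is the log2 of the scanner's processed signal minus that of the array's 75th percentile, so that 0 is the 75th percentile. Where a gene was not well above background on 1 of a pair of arrays, its difference is given as "at least", against the lowest level that is well above background there. In bulk RNA of this kind, fewer cells that express a gene and less of its mRNA per cell cannot be told apart.

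**Figure D1:**
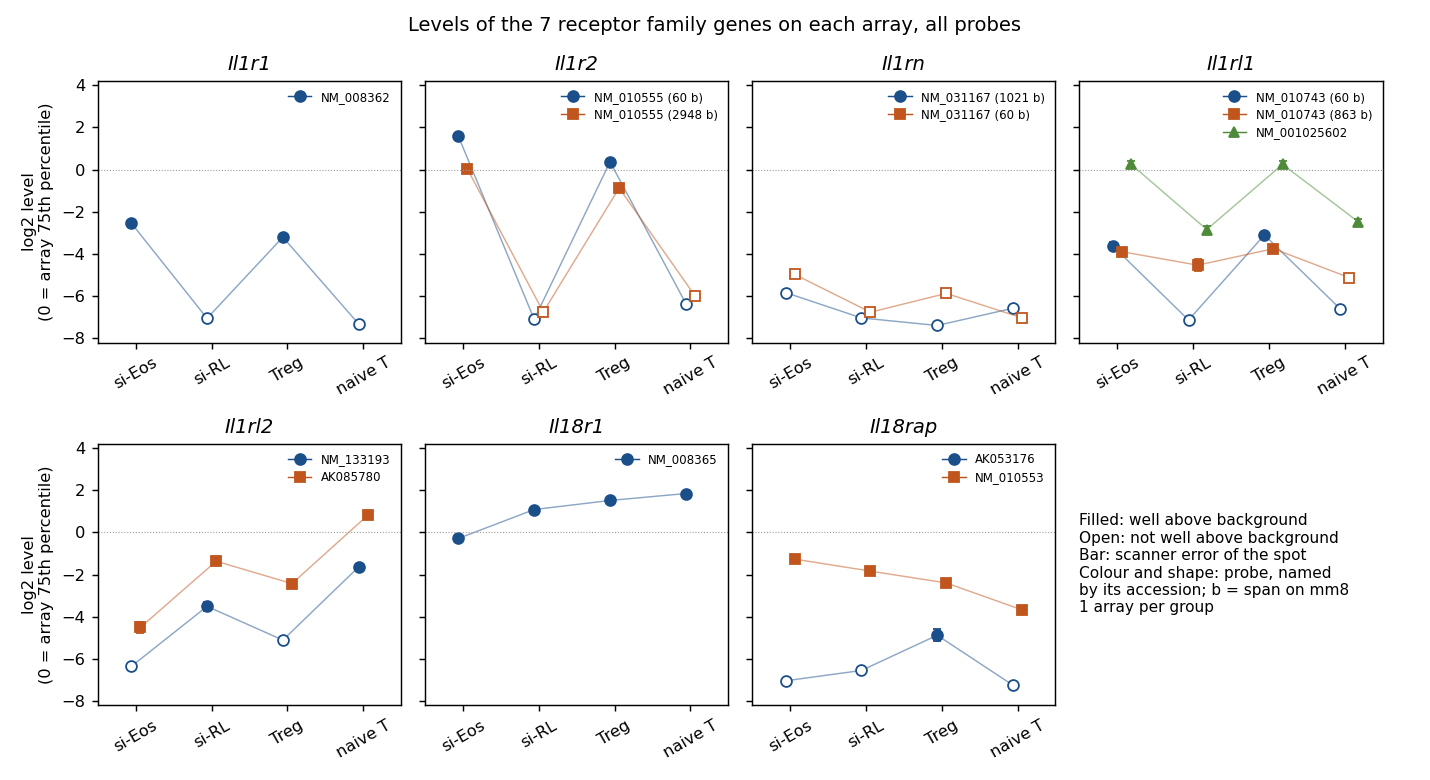
Log2 level on each array of every probe of the 7 genes, with 1 array per group. Filled points are well above background, open points are not, and bars are the scanner's error of the spot. Il1r2 and Il1r1 are above background in the array labelled si-Eos and in Treg, and Il1rn is above background on no array.

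Il1r2 encodes the decoy IL-1 receptor, which binds IL-1 and lacks the signalling domain. Its brighter probe (chromosome 1, 40067715 to 40067774, mm8) had a signal of 956 in the array labelled si-Eos, 1.92 in the array labelled si-RL, 505 in Treg and 3.71 in naive T cells. The second probe (40056672 to 40059619, a span far longer than the probe itself and so across a splice junction) read 325, 2.44, 215 and 4.81 in the same order. On both probes the array labelled si-Eos and Treg were high, while the array labelled si-RL and naive T cells were not above background. The brighter probe was at least 86.2-fold higher in the array labelled si-Eos than in the array labelled si-RL, and the second at least 29.3-fold. In Treg it was at least 43.8-fold higher than in naive T cells, and at least 18.6-fold on the second probe. Against Treg, the array labelled si-RL was at least 37.2-fold lower on the brighter probe. The array labelled si-Eos exceeded Treg by a log2 difference of 1.21 ± 0.20 on that probe and 0.89 ± 0.21 on the other (± is the scanner's error of the pair of spots throughout).

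The promoter of Il1r2 is shown because this gene had the widest differences of the list. The sequence is RefSeq's, from GRCm38.p6, plus strand, from 250 bases before to 50 bases after the annotated start. Capitals mark matches on either strand to any of 6 motifs. These were the NF-κB motif (GGG and CC with any 5 bases between them), AP-1 as TGANTCA, STAT as TTCNNNGAA, the GATA motif as AGATAA, the forkhead motif as GTAAACA, and lastly the core of the Ikaros family as TGGGAA.
Il1r2, chr1:40085843-40086142: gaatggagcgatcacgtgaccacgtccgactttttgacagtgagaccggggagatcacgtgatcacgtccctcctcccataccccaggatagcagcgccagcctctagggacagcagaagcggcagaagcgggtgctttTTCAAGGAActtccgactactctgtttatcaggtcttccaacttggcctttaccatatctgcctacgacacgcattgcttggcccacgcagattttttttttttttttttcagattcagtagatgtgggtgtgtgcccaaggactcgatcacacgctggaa
The window held 1 match, to the STAT motif, 111 bases before the start. That motif is found in 8.3% of 32851 RefSeq promoter windows of this length. A match is a description of letters and shows no binding.

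Il1r1 encodes the signalling IL-1 receptor. Its single probe (chromosome 1, 40260368 to 40260427, mm8) was dim: 55.4 in the array labelled si-Eos, 1.98 in the array labelled si-RL, 42.7 in Treg and 1.89 in naive T cells. It was above background on the same arrays as Il1r2. The bounds were lower, at least 5.0-fold between the array labelled si-Eos and the array labelled si-RL and at least 3.70-fold between Treg and naive T cells. The array labelled si-RL was at least 3.14-fold lower than Treg. Between the array labelled si-Eos and Treg the log2 difference was 0.67 ± 0.22, and it turned to -1.04 with normexp background correction. Transcripts of the decoy and of the signalling receptor were thus found on the same arrays, and their amounts cannot be set against each other because the probes differ.

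Il1rn encodes the IL-1 receptor antagonist, a secreted protein made mainly by myeloid and epithelial cells. Its probes on chromosome 2 (24172614 to 24172673 and 24169524 to 24170544, mm8) were not well above background on any array, with signals between 2.01 and 10.2. No difference is given for it.

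Il1rl1 encodes ST2, the receptor of IL-33, as a membrane form and as a shorter soluble form that acts as a decoy, and the 3 probes divide along these transcripts. The probe assigned in the file to the membrane transcript alone (NM_001025602, chromosome 1, 40409653 to 40409712, mm8) read 382 in the array labelled si-Eos, 36.5 in the array labelled si-RL, 466 in Treg and 54.1 in naive T cells. All were above background, and the array labelled si-Eos and Treg stood well over the rest. The log2 difference was 3.10 ± 0.23 between the array labelled si-Eos and the array labelled si-RL and 2.73 ± 0.21 between Treg and naive T cells. It was -3.09 ± 0.23 for the array labelled si-RL against Treg. Between the array labelled si-Eos and Treg it was 0.01 ± 0.20, and neither of the other probes exceeded Treg there.

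The probe of the soluble transcript (NM_010743, 40392470 to 40392529) was dim: 26.0 in the array labelled si-Eos, 1.87 in the array labelled si-RL, 45.8 in Treg and 3.12 in naive T cells. It was above background on the same arrays as Il1r2, with bounds of at least 2.35-fold between the array labelled si-Eos and the array labelled si-RL and at least 3.97-fold between Treg and naive T cells. The array labelled si-Eos differed from Treg by -0.52 ± 0.24 on this probe. The probe listed under both transcripts (40386043 to 40386905, across a splice junction) was near the background limit, with 21.5, 11.4, 29.2 and 8.74 in the array labelled si-Eos, the array labelled si-RL, Treg and naive T cells. It differed by only 0.63 ± 0.34 between the hairpin arrays, against 3.10 on the membrane probe, so the 3 probes shared the direction and not the size.

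Both RefSeq start sites of Il1rl1 listed for this gene are shown, since the gene is transcribed from separate promoters and no probe here tells them apart. Build, strand, window and capitals are as for Il1r2.
Il1rl1, chr1:40429320-40429619: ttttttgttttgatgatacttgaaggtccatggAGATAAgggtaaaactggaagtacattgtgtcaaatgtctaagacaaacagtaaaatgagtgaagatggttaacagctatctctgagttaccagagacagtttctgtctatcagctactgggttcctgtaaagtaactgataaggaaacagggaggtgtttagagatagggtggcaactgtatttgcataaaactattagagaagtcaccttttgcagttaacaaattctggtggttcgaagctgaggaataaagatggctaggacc
Il1rl1, chr1:40439379-40439678: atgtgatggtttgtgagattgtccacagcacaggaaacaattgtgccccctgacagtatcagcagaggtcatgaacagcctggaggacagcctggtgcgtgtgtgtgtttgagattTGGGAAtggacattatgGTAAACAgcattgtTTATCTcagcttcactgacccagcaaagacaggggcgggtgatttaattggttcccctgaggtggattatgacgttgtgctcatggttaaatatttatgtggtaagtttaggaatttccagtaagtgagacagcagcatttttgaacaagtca
Each window held a GATA match, a motif found in 11.2% of all such windows. The second also held a forkhead match, a motif found in 3.65% of windows, and an Ikaros family match, found in 25.6%. The NF-κB motif, found in 50.8% of all windows, and AP-1, found in 7.81%, matched in none of the 3 windows shown.

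Il1rl2 encodes the IL-36 receptor and ran the other way. Its brighter probe, listed under AK085780 (chromosome 1, 40311946 to 40312005, mm8), read 14.1 in the array labelled si-Eos, 102 in the array labelled si-RL, 72.6 in Treg and 529 in naive T cells. Naive T cells were highest and the array labelled si-Eos lowest, with all above background. The probe of the RefSeq transcript NM_133193 (40290353 to 40290412) read 23.0 in the array labelled si-RL and 96.9 in naive T cells, and was not above background in the array labelled si-Eos (3.91) or in Treg (11.4). On the brighter probe the log2 difference was -3.24 ± 0.21 between Treg and naive T cells and -3.14 ± 0.29 between the array labelled si-Eos and the array labelled si-RL. Against Treg, the array labelled si-Eos differed by -2.08 ± 0.29. The array labelled si-RL differed from Treg by 1.06 ± 0.21, just past 2-fold, and this turned to -0.32 with normexp background correction, where the median of all genes was -0.31.

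Il18r1 encodes the chain that binds IL-18 and was above background on every array. Its probe (chromosome 1, 40445242 to 40445301, mm8) read 262 in the array labelled si-Eos, 553 in the array labelled si-RL, 1119 in Treg and 1088 in naive T cells. Treg and naive T cells lay close together, with a log2 difference of -0.33 ± 0.20. The array labelled si-Eos was lowest, by -1.37 ± 0.20 against the array labelled si-RL and -1.80 ± 0.20 against Treg. The array labelled si-RL differed from Treg by -0.44 ± 0.20.

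Il18rap encodes the accessory chain needed for IL-18 signalling, and its order on the arrays was not that of Il18r1. The probe of NM_010553 (chromosome 1, 40493430 to 40493489, mm8) read 133 in the array labelled si-Eos, 73.1 in the array labelled si-RL, 74.4 in Treg and 23.7 in naive T cells. Naive T cells were lowest and the array labelled si-Eos highest, with Treg and the array labelled si-RL between them. Treg exceeded naive T cells by a log2 difference of 1.28 ± 0.24. The array labelled si-Eos differed from the array labelled si-RL by 0.57 ± 0.21. Against Treg the differences were 1.13 ± 0.21 for the array labelled si-Eos and 0.56 ± 0.21 for the array labelled si-RL, and these were -0.34 and -0.66 with normexp background correction, where the medians of all genes were -0.36 and -0.31. Averaged over both probes they were -0.52 and -0.56, with the second probe not above background on either hairpin array. The second probe, listed under AK053176 (40470431 to 40470490), was above background in Treg alone, at 13.3.

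**Figure D2:**
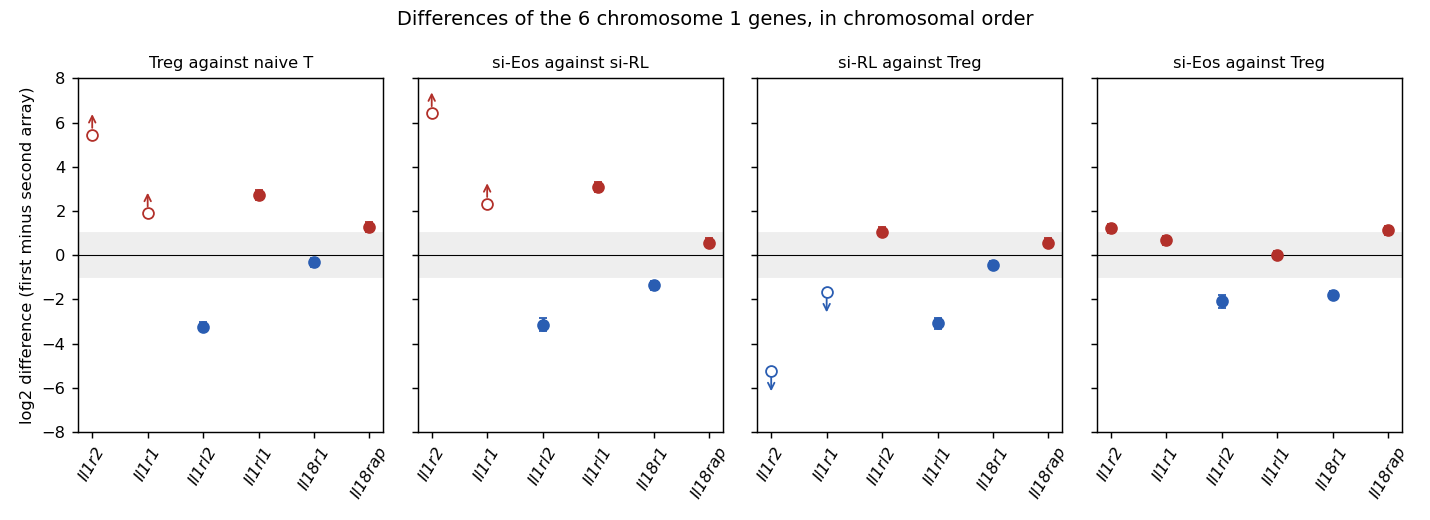
Log2 difference in each comparison of the 6 genes on chromosome 1, in their order along the chromosome. Filled points are measured on both arrays, with bars for the scanner's error, open points with arrows are lower bounds, and the grey band is under 2-fold. Il1rl2, which lies between Il1r1 and Il1rl1, runs against its neighbours in the first 3 panels.

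The 6 genes lie side by side on chromosome 1. Their probes span 437 kb of mm8, in the order Il1r2, Il1r1, Il1rl2, Il1rl1, Il18r1 and Il18rap, and 1 other probe of the array lies within that span, above background on no array. Il1r2 and Il1r1, which lie side by side, had the same sign in all 4 comparisons. Only the array labelled si-Eos against Treg was measured for both, and there normexp gave 1.25 for Il1r2 and -1.04 for Il1r1. The other comparisons were bounds against arrays where both genes were below background. Il1rl2 ran against the genes beside it: in Treg against naive T cells, Il1rl2 was 9.44-fold lower while Il1r1 before it was at least 3.70-fold higher and Il1rl1 after it was 6.64-fold higher.

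Counted together, 4 of the 6 genes that could be compared were at least 2-fold higher in Treg when set against naive T cells (Il1r1, Il1r2, Il1rl1 and Il18rap) and 1 was lower (Il1rl2). Over all 19218 genes compared, 6.71% were higher and 2.41% lower. Of those apart, 73.5% were higher in Treg, and 57.1% with median scaling, 87.2% with spike-in scaling and 89.2% with normexp background correction. Between the array labelled si-Eos and the array labelled si-RL, 3 of 6 were higher (Il1r1, Il1r2 and Il1rl1) and 2 lower (Il1rl2 and Il18r1), where 12.1% and 10.2% of 19528 genes were. In the array labelled si-RL against Treg, 1 was higher (Il1rl2) and 3 lower (Il1r1, Il1r2 and Il1rl1), where 8.26% and 9.8% of 19336 genes were. Of all genes apart there, 45.7% were higher, and 16.7% with spike-in scaling and 13.6% with normexp. In the array labelled si-Eos against Treg, 2 were higher (Il1r2 and Il18rap) and 2 lower (Il1rl2 and Il18r1), where 9.77% and 10.7% of 19841 genes were. The share of higher genes there was 47.7%, and 25.4% with spike-in scaling and 17.7% with normexp. Since the list was drawn up with these levels known, the counts carry no evidence beyond the levels. Each array enters 2 or 3 of the 4 comparisons, except naive T cells, which enter 1, so the repeat of a gene from one comparison to another is not independent.

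For each member, the genes with the most similar profile were sought among genes above background on exactly the same arrays, by the root mean square difference of log2 levels centred over the 4 arrays. For Il1r1 and Il1r2, the array labelled si-RL and naive T cells were below background in every profile, so no nearest gene is given. Among 12664 genes above background everywhere, Slamf9 (0.10), Lclat1 (0.12) and Nt5e (0.14) were closest to Il1rl1. Nt5e encodes CD73, a nucleotidase of the Treg surface. Closest to Il1rl2 were Igfbp4 (0.30), Ggt5 (0.32) and Nacc2 (0.37). Il18r1 was followed most closely by Plcb2 (0.04), Sap25 (0.04) and Sh3pxd2a (0.05), and Il18rap by Wdr35 (0.05), Tacc3 (0.08) and Stau2 (0.08). A profile here holds 4 points, and likeness over so few is a description.

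Of the other chains of the receptor family, Il1rap, the accessory chain shared by the receptors of IL-1, IL-33 and IL-36, read 23.7 in the array labelled si-Eos, 53.4 in the array labelled si-RL, 95.0 in Treg and 69.5 in naive T cells. The array labelled si-Eos was lower than the array labelled si-RL by a log2 difference of -1.46 ± 0.24, with -1.09 on its other probe. Treg and naive T cells differed by 0.08 ± 0.21. Sigirr, an inhibitory member of the family, was under 2-fold apart in all 4 comparisons, with 0.88 ± 0.20 between the hairpin arrays. Of the 7 genes of this list, which includes Toll-like receptors with the same TIR domain, 6 were measured. In Treg against naive T cells 1 was higher, Tlr4 at 1.62 ± 0.23, and none lower, where 6.71% and 2.41% of all genes were. In the array labelled si-Eos against Treg, 4 were lower (Il1rap, Il1rapl2, Tlr1 and Tlr2) and none higher, with a median of -1.05. Of all genes, 10.7% were lower there and 9.77% higher. In the array labelled si-RL against Treg, 2 were lower (Tlr1 and Tlr4), where 9.8% of all genes were. Tlr2 was lower in the array labelled si-Eos than in the array labelled si-RL by -2.15 ± 0.22.

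Of 10 genes for ligands and soluble antagonists, 3 could be measured on both arrays of Treg and naive T cells. Il1f8, which encodes IL-36β, read 260 in the array labelled si-Eos, 189 in the array labelled si-RL, 427 in Treg and 294 in naive T cells, and Il18bp, the secreted IL-18 antagonist, 169, 141, 282 and 209 in the same order. Both were under 2-fold apart in all 4 comparisons. Il18 was the only one of the 3 past 2-fold in Treg against naive T cells, where 6.71% of all genes were higher and 2.41% lower. Its difference there was 1.07 ± 0.24, with signals of 74.4 in Treg and 27.4 in naive T cells. It was lower in the array labelled si-RL than in Treg by -1.50 ± 0.27, and between the hairpin arrays it differed by 0.58 ± 0.28. Of 10 inflammasome and processing genes, 9 could be compared between Treg and naive T cells. There 2 were higher and none lower, with a median of 0.36, where 6.71% and 2.41% of all genes were. Casp1, the protease that matures IL-1β and IL-18, was higher in Treg by 1.69 ± 0.20, and Casp4 by 2.37 ± 0.20. Both were lower than in Treg in both hairpin arrays, Casp1 by -2.15 ± 0.20 in the array labelled si-Eos and -2.54 ± 0.20 in the array labelled si-RL. In the array labelled si-Eos, 3 of 10 of this list were lower than in Treg and 1 higher, where 10.7% and 9.77% of all genes were. In the array labelled si-RL, 4 of 9 were lower and none higher, where 9.8% and 8.26% of all genes were.

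All 18 adaptors and kinases were measured. None was 2-fold apart between the hairpin arrays, where 12.1% of all genes were higher and 10.2% lower. The list median there was 0.18, against 0.04 over all genes measured. Myd88 read 1288 in the array labelled si-Eos, 829 in the array labelled si-RL, 1363 in Treg and 1492 in naive T cells. In Treg against naive T cells 1 was higher and none lower, where 6.71% and 2.41% of all genes were. That was the kinase gene Map3k8 at 2.13 ± 0.23, and the list median was 0.04. In the array labelled si-Eos against Treg, 3 were higher (Map3k7, Tirap and Traf6) and 2 lower (Ikbkb and Irak3). Of all genes, 9.77% were higher and 10.7% lower there. In the array labelled si-RL against Treg, 2 were higher (Map3k8 and Tirap) and 1 lower (Irak3). The shares of all genes there were 8.26% and 9.8%. Irak3, a brake on the receptor complex, was lower than in Treg in both hairpin arrays, by -1.68 ± 0.25 in the array labelled si-Eos and -1.02 ± 0.24 in the array labelled si-RL, where its other probes gave -0.94 and 0.47.

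NF-κB feedback and target genes went both ways between the hairpin arrays. Of 17 measured, 6 were at least 2-fold higher in the array labelled si-Eos and 3 lower, with a median of 0.81, where 12.1% and 10.2% of all genes were. Traf1 (1.91 ± 0.20), Nfkb1 (1.79 ± 0.20) and Nfkbib (1.49 ± 0.20) were among those higher, and the other 3 probes of Nfkb1 gave 0.79 to 0.93. Nfkbiz (-2.07 ± 0.20) and Tnfaip3, which encodes the NF-κB inhibitor A20 (-1.33 ± 0.20), were lower. In Treg against naive T cells 3 of the 17 were higher and none lower, where 6.71% and 2.41% of all genes were, with a median of 0.67, and Rel at 1.20 ± 0.21 was the highest.

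Genes of the T cell states in which these receptors are known were also counted, beside 6.71% higher and 2.41% lower over all genes in Treg against naive T cells, and 12.1% higher and 10.2% lower between the hairpin arrays. Of 11 ST2 Treg and type 2 genes, 8 were higher by 2-fold or more in Treg when set against naive T cells and none was lower, with Klrg1, a marker of differentiated Treg, at 4.66 ± 0.27 and Areg (amphiregulin, a tissue repair factor) at least 18.0-fold higher. Between the hairpin arrays 4 were higher in the array labelled si-Eos and none lower, Il10 at least 158-fold and Ccr8 at least 36.8-fold. Of 10 type 1 genes, 6 were higher in Treg when set against naive T cells and 6 in the array labelled si-Eos than in the array labelled si-RL, where Ifngr2 was lower by a log2 difference of -1.48 ± 0.20. Among the higher were Tbx21, the type 1 factor (2.49 ± 0.21 and 3.19 ± 0.20), and Il12rb1, an IL-12 receptor chain (3.19 ± 0.21 and 4.25 ± 0.20). In the list of 8 type 17 genes, 5 of the 7 that could be compared were higher in Treg, and 5 of 6 in the array labelled si-Eos. Il17a, the cytokine of this state, was above background on no array, and Il17f differed by 0.72 ± 0.36 in Treg against naive T cells and -0.68 ± 0.28 between the hairpin arrays.

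**Figure D3:**
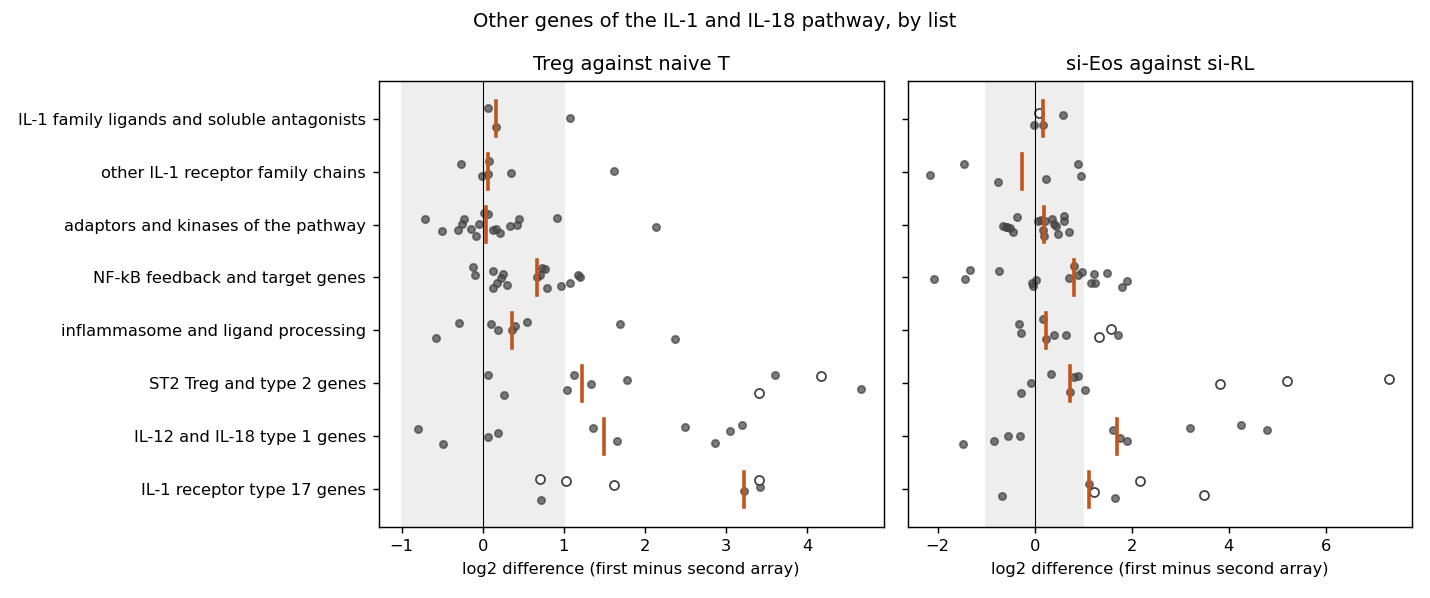
Log2 differences of the genes of the 8 lists around the receptors, for Treg against naive T cells and for the array labelled si-Eos against the array labelled si-RL. Filled points are measured on both arrays, open points are lower bounds, orange bars are medians of the measured genes, and the grey band is under 2-fold. Adaptors and kinases lie within the band between the hairpin arrays.

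Markers of other cells that carry these receptors were read on the same arrays. Summed levels, in units of the 75th percentile, of 8 mast cell and basophil markers were 3.17 in the array labelled si-Eos, 0.697 in the array labelled si-RL, 0.922 in Treg and 0.922 in naive T cells. Cpa3 and Cma1 held most of the highest sum, with 341 and 367 in the array labelled si-Eos and at most 31.5 on the other arrays. Mcpt8 was above background in the array labelled si-Eos only, at 13.7, near the lowest such reading there of 9.12. Prss34 read 35.0, 36.1, 84.0 and 74.0 in the order of the sums, highest in Treg. Kit, the stem cell factor receptor of mast cells, read 66.0 in the array labelled si-Eos, 32.0 in the array labelled si-RL, 89.7 in Treg and 14.7 in naive T cells, 4.72-fold higher in Treg once scaled, set against naive T cells (a log2 difference of 2.24 ± 0.30). Of 10 neutrophil markers, 4 were above background in the array labelled si-Eos, 1 in the array labelled si-RL and 2 in Treg and naive T cells each, with S100a8, Camp, Ngp, Retnlg, Elane and Csf3r above background on none. The sums for 12 macrophage, monocyte and dendritic cell markers were 14.1, 7.13, 8.75 and 8.16 in the order of the mast cell sums, with Cst3 the largest part and Ms4a7 above background on no array. Those of 8 B cell markers were 1.35, 1.12, 25.1 and 24.5, and those of 8 NK and CD8 T cell markers 5.45, 3.14, 3.90 and 7.32. The median levels of the NK and CD8 T cell markers had another order, 0.585, 0.064, 0.143 and 0.0808. Of the 7 that could be compared between the hairpin arrays, 3 were at least 2-fold higher in the array labelled si-Eos (Eomes, Klrk1 and Prf1). None was lower, where 12.1% of all genes were higher and 10.2% lower. Treg markers summed to 323, 120, 149 and 28.1, of which Tnfrsf18 alone gave 237, 109, 81.7 and 24.1, and the median levels of the 8 were 16.0, 1.16, 7.1 and 0.436. In the array labelled si-RL 6 of these 8 were at least 2-fold lower than in Treg, with a median log2 difference of -2.36, where 9.8% of all genes were lower. Naive T markers summed to 86.9, 168, 98.7 and 224, highest in naive T cells. The T cell markers summed to 315, 192, 327 and 372, lowest in the array labelled si-RL. There 3 of 7 were at least 2-fold lower than in Treg (Cd3e, Cd5 and Thy1) and none higher, with a median log2 difference of -0.98. A second probe gave -0.70 for Cd3e and 0.16 for Thy1. The part of any of these in the receptor differences was not tested.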

How the data were processed

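Per the file headers, the deposited files hold spot intensity values from 1-colour Agilent arrays, extracted with Feature Extraction 9.5.3.1: the authors' processed signal is background-subtracted and detrended, not scaled between arrays, with probes placed on mm8. All arrays were on 1 slide in 1 scan. The authors' deposited value table held the same intensity values (100% of spots within 0.5%, column medians 38.5, 31.5, 50.5 and 33.2 for the arrays labelled si-Eos and si-RL, Treg and naive T), linear and not centred, with its direction that of the signal.

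From these, log2 of the processed signal minus that of each array's 75th percentile was taken over 41169 non-control probes with an unflagged spot on every array. No spot was saturated. Probes took names from RefSeq accessions (24375), current symbols (6301) or a single synonym (2426) in a GRCm38.p6 table, and 8072 kept the file's name. A gene is read by its brightest probe above background on both arrays. Where it is below background on 1 array, the "at least" fold is taken against the dimmest reading there that was well above background, or against the probe's own where that was higher. Genes at least 2-fold apart were counted. No test was run, since each group has 1 array, and the number of arrays limits the precision. Exon and UTR positions of probes were not analysed here, and the builds differ, so RefSeq coordinates stand only with the promoters.

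Members, lists and motifs were chosen with earlier results of these data known. Named were all members, Ikzf4, Foxp3, up to 4 genes a list and comparison by size of difference, and the 3 nearest profiles of members above background everywhere. Sigirr, Myd88, Cst3, Cpa3, Cma1, Kit, Il1f8, Il18bp, Il17a, Il17f and other single markers were named after their values were seen. The 8 pathway lists held 91 genes, all on the array, and the 8 marker lists 70, of which 68 were. Alternatives were median, quantile and spike-in scaling, normexp (limma 3.58.1, offset 50), other rules for dim probes and for several probes of a gene, a 3-fold threshold and the value table. The counting step was tested on simulated data. Python 3.11.15, pandas 2.3.3 and R 4.3.3 were used.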

Additional observations from a re-analysis of the deposited data

Results flagged for a closer look

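Both hairpin arrays were set against the same Treg array, and for 2 of the receptor genes they lay on opposite sides of it by at least 2-fold. Il1r2, the decoy IL-1 receptor, had a log2 difference of 1.21 from Treg in the array labelled si-Eos and at least -5.22, that is 37.2-fold lower or more, in the array labelled si-RL. Il1rl2, the IL-36 receptor, had -2.08 in the array labelled si-Eos and 1.06 in the array labelled si-RL. The Il1r2 difference in the array labelled si-Eos was 0.89 on its second probe and 0.88 with spike-in scaling, both under 2-fold. That of Il1rl2 in the array labelled si-RL was 0.66 with spike-in scaling and -0.32 with normexp. These differences between the hairpin arrays were not tested, since each is 1 array, and the signs would change places if the labels were exchanged. Of 19056 genes compared in both, 142 (0.745%) shared the pattern of Il1r2 and 64 (0.336%) that of Il1rl2.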

How the results depend on the processing

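No paired analysis was possible because each group has 1 array and the labels give no replicate numbers. Of 18 differences of at least 2-fold in single receptor genes, 138 values were had under the alternatives, 135 with the same sign and 131 still at least 2-fold. The reversed values were Il18rap in the array labelled si-Eos against Treg, at -0.34 with normexp and -0.52 with probes averaged, and Il1rl2 in the array labelled si-RL against Treg, at -0.32 with normexp, and the cause was not tested. The medians of all genes under normexp were -0.36 and -0.31 in these comparisons, and the second Il18rap probe in the average was not above background in the array labelled si-Eos. Normexp was run with local backgrounds and an offset of 50. With it the bound for Il1r1 between the hairpin arrays was 0.66, against 2.32 without it, and the reason was not tested. When only genes above background on both arrays counted, 2 and not 4 were higher in Treg when set against naive T cells, 1 and not 3 in the array labelled si-Eos than in the array labelled si-RL, and 1 and not 3 lower in the array labelled si-RL than in Treg, since the bounds of Il1r1 and Il1r2 drop out. Higher in the array labelled si-Eos than in Treg were 2 genes, but 0 with spike-in scaling, 1 with normexp, 1 with probes averaged and 0 at 3-fold. Higher in the array labelled si-RL than in Treg was 1, and 0 with spike-in scaling, with normexp and at 3-fold. At 3-fold, 1 and not 2 was lower in the array labelled si-Eos than in the array labelled si-RL. Scaling moved the median of all measured genes in Treg against naive T cells to -0.23 (arrays scaled to their medians) and 0.26 (spike-in), and with spike-in scaling to -0.41 and -0.28 against Treg in the arrays labelled si-RL and si-Eos. Relative to these shifts Il1rl2 in the array labelled si-RL (0.66 with spike-in scaling) and Il1r2 in the array labelled si-Eos (0.88) stayed above the median gene. Over all genes, counts apart by over 1.5 times were as follows. In Treg against naive T cells, 1289 were higher, and 3082 with normexp, 2141 with no filter and 728 at 3-fold. Lower there were 464, and 278 with spike-in scaling, 776 with median scaling, 982 with no filter and 155 at 3-fold. Between the hairpin arrays 2364 were higher, and 1227 with normexp, 3570 with no filter and 984 at 3-fold, while 1985 were lower, and 854 with normexp and 718 at 3-fold. In the array labelled si-RL against Treg, 1598 were higher, and 966 with normexp, 771 with spike-in scaling, 2581 with no filter and 552 at 3-fold, and 1895 lower, and 6162 with normexp, 3849 with spike-in scaling and 901 at 3-fold. In the array labelled si-Eos against Treg, 1938 were higher, and 1135 with spike-in scaling, 3019 with no filter and 796 at 3-fold, and 2125 lower, and 6756 with normexp, 3328 with spike-in scaling and 1032 at 3-fold. Signals near the background limit, between 8.90 and 11.2 over the arrays, bound what can be said of Il1r1, Il1rn and the soluble Il1rl1 transcript.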

Other observations

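Genes on both sides of the receptor cluster were read as well. Map4k4, the gene before Il1r2 on the array's map of chromosome 1, had 3 probes above background everywhere, and its log2 differences between Treg and naive T cells were -0.05, -0.58 and -0.41. Between the hairpin arrays its probes gave -1.51, -0.14 and -0.64, so 1 of 3 was past 2-fold. Beyond Il18rap, the sodium/proton exchanger gene Slc9a4 was above background on 2 arrays by 1 of its 2 probes, with 0.23 between Treg and naive T cells. Mfsd9, farther on, was above background on every array by 1 probe, which differed by 0.02 between Treg and naive T cells and -0.38 between the array labelled si-Eos and the array labelled si-RL. These genes were looked up after the receptor values were seen.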
